A study of Mus musculus with 14 samples.

Results

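The hnRNP and SR splicing factor genes are described here across heart and hippocampus of mouse pups and adults. Members were all genes with a symbol that starts with Hnrnp, or with Srsf and a number, and that had a probe set annotated with that gene alone. They numbered 29 of the 18194 genes measured, 19 hnRNP genes and 10 Srsf genes. The symbols alone decided membership. The probe set that stands for a gene was chosen by the highest mean over all 14 arrays, so each member is shown at its brightest measured probe set. Hnrnpa3 was named only by probe sets that also name a second gene and is not analysed here.

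Heterogeneous nuclear ribonucleoproteins (hnRNPs) coat nascent transcripts and steer splicing, polyadenylation, export, transport and decay of mRNA, and many of them silence exons or bind introns. SR proteins carry RNA recognition motifs and a tail rich in arginine and serine, bind exonic enhancers and recruit the splicing machinery, often in opposition to hnRNPs. The balance between both families is known to shift alternative exons during the postnatal maturation of heart and brain, and several members also move mRNA into neurites.

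RNA was measured on 14 single-colour Affymetrix mouse genome arrays from C57BL/6 mice. The groups were adult hippocampus and adult heart, from male mice 10 weeks old (2 samples each, every sample on 2 technical arrays), and pup hippocampus and pup heart at 7 days of age (3 samples and 3 arrays each, sex not given). Adult RNA was bought from Zyagen, while pup mRNA was isolated from tissue with TRIzol and MicroFastTrack, so age cannot be told apart from RNA source and preparation. The labels give the adult RNA as mRNA and the study's methods as total RNA. The sample titles pair the adult arrays as technical replicates, while another label field and the study's text count all 4 adult arrays of a tissue as biological replicates, and the methods name a male mouse in the singular. Whether the adult samples came from separate animals is therefore not settled. P-values therefore reflect only how far these samples varied, and that variation may be technical.

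All values are deposited log2 expression values, which lay between 2.67 and 16 over all probe sets, and a difference of 1 is a doubling of the signal. Differences were tested in a single limma fit across all genes with 4 group means, with Benjamini-Hochberg adjustment over all genes and a threshold of 0.05. "Higher", "lower", "rose" and "fell" are used only past that threshold. With so few arrays the precision is limited, and the median standard error (SE) of an age difference over all genes was 0.34. Levels of different genes come from different probe sets and were not compared with each other.

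The arrays themselves differed by age. The 18 probe sets of the hybridization controls, RNAs added to each labelled sample, averaged 10.80 in adult and 13.15 in pup hippocampus, and 10.73 in adult and 13.16 in pup heart. The gap between the 3′ and 5′ probe sets of Gapdh, a measure of transcript length in the labelled RNA, was 1.58 and 1.00 in adult hippocampus, against 2.90, 3.03 and 4.97 in pup hippocampus. It was 1.58 and 1.76 in adult heart, against 2.49, 0.72 and 3.80 in pup heart. The same gap for beta-actin separated the ages in both tissues, at 0.01 and 0.16 in adult against 2.34, 1.84 and 2.48 in pup hippocampus, and at 0.04 and 0 in adult against 0.58, 0.39 and 0.82 in pup heart. Markers of the labelled tissue were clear for heart and mixed for hippocampus. The mean over 6 cardiomyocyte markers was 8.73 and 8.7 in adult hippocampus and 13.87 and 13.49 in adult heart, and 9.14 to 11.29 in pup hippocampus against 14.61 to 15.26 in pup heart, and 2 of the 6 (Actc1 and Myh6) were lower in adult than in pup hippocampus. Of the 6 cardiomyocyte markers, 4 were lower in adult hippocampus than in adult heart and 6 in pups. The 6 neuronal markers averaged 12.29 to 13.04 in the hippocampal samples and 11.19 to 11.37 in the hearts, but only 2 (Snap25 and Tubb3) were higher in adult hippocampus than in adult heart, while Rbfox3 (-0.30), Syn1 (0.20), Map2 (0.38) and Syt1 (0.62) did not pass, and 3 were higher in pups. Of 4 astrocyte markers, Aqp4 was higher (2.62) and Aldh1l1 lower (-1.0) in adult hippocampus, and 0 of 3 oligodendrocyte markers passed at either age.

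The promoter windows of 5 members are shown first, 3 hnRNP genes that fell in adults of both tissues (Hnrnpu, Hnrnpa0 and Hnrnpm), and, for contrast, an SR gene whose probe sets disagreed (Srsf6) and the SR gene that rose in adult heart (Srsf12). Each window runs from 250 bases before to 50 bases after the RefSeq start (GRCm38.p6), at chr1:178337766-178338065 (minus strand), chr13:58128507-58128806 (minus strand), chr17:33685409-33685708 (minus strand), chr2:162931258-162931557 (plus strand) and chr4:33209022-33209321 (plus strand). Capitals mark the CCAAT box, the GC box GGGCGG and the TATA box TATAAA on either strand.
Hnrnpu: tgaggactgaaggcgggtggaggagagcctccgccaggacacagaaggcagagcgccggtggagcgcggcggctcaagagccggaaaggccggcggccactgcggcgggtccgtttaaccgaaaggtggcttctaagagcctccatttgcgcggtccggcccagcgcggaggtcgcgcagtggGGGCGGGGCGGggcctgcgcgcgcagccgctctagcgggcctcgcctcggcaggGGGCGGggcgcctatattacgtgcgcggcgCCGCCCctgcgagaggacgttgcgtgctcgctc
Hnrnpa0: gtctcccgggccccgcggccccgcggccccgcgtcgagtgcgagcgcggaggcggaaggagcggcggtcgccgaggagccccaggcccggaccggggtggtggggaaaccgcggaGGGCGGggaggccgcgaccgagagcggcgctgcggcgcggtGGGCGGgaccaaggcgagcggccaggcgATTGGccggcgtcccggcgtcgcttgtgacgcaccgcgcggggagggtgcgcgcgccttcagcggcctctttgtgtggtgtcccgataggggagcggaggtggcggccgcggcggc
Hnrnpm: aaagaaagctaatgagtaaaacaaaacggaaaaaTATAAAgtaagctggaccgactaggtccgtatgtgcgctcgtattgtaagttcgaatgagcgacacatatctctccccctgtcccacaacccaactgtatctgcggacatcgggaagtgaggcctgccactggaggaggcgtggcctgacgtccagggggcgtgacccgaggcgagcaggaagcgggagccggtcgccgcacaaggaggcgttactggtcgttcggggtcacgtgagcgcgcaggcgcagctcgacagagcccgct
Srsf6: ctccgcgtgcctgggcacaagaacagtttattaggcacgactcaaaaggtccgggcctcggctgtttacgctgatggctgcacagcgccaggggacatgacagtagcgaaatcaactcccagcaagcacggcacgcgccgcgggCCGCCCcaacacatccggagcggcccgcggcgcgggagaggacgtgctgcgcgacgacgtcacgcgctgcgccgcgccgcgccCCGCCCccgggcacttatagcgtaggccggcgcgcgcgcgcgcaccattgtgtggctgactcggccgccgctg
Srsf12: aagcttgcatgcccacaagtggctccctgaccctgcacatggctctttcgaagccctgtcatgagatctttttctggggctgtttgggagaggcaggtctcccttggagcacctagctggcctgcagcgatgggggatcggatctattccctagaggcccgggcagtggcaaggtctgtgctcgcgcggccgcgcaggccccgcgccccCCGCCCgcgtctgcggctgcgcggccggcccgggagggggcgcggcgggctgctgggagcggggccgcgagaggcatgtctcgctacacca

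The Hnrnpu window held 41 CpG dinucleotides and the Hnrnpa0 window 52, while Hnrnpm had 27 and the only TATAAA of the 5. Srsf6 had 45 CpG and Srsf12 had 26. RefSeq windows were found for 27 of the 29 members (39 windows, since some genes have several starts), all but Hnrnpll and Hnrnpul2. Their median was 31 CpG and 68.3% G and C, against 7 CpG and 52.7% over all 32851 windows. GGGCGG was present in 32 of the 39 windows (82.1%, against 35.7% of all windows) and CCAAT in 20 (51.3%, against 37.4%), counting both strands. TATAAA occurred in 4 (10.3%, against 13.6%). Some windows of the same gene overlap. Counted by gene, 22 of the 27 members had GGGCGG in a window, 16 had CCAAT and 4 had TATAAA. A match describes the letters of the window only.

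In hippocampus, 12 of the 29 members were lower in adults than in pups and 0 were higher, where 7.44% of all genes were lower and 8.63% higher. All 12 were hnRNP genes, 12 of 19, with a median difference over the 19 of -1.88. None of the 10 Srsf genes passed the test at its brightest probe set, and their median difference was -0.17. That no Srsf gene was called rests on this choice of probe set. Over all single-gene probe sets, 21 of 58 of hnRNP genes were lower (36.2%) and 2 higher (3.45%). Of Srsf genes, 3 of 33 were lower (9.09%, Srsf10 and Srsf6) and 2 higher (6.06%, Srsf2). These Srsf shares lay near those of all probe sets, 7.28% lower and 8.15% higher. Over all genes the median was 0.10. The members' mean levels lay between the 38.3 and 96.8 percentiles of all genes, with a median of 73.2. Among the 11595 genes (63.7%) at or above the dimmest member, which is a loose match in level, 9.68% were lower in adult hippocampus.

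Hnrnpf, which binds runs of G in pre-mRNA, had 11.08 and 11.44 in adult hippocampus, against 14.88, 14.74 and 15.03 in pup hippocampus. The difference was -3.63 (SE 0.53, limma adjusted p = 0.00378). Hnrnpm, a splicing regulator that binds GU-rich RNA, had 10.69 and 11.06 in adults, against 14.31, 14.20 and 14.41 in pups, a difference of -3.43 (SE 0.69, adjusted p = 0.0126). In both genes the groups were far apart and the pup samples lay close together. Hnrnpdl, a relative of Hnrnpd, had 11.06 and 11.54 in adults, against 14.83, 14.07 and 15.11 in pups (-3.37, SE 0.57, adjusted p = 0.00659). Hnrnpa0, which binds AU-rich mRNA, had 10.69 and 10.98 in adults, against 14.35, 14.06 and 13.97 in pups (-3.29, SE 0.42, adjusted p = 0.00227). Again no adult sample reached a pup sample.

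Hnrnpul2, a relative of Hnrnpu, had 11.57 and 12.01 in adult hippocampus, against 14.92, 14.75 and 15.06 in pup hippocampus (-3.12, SE 0.38, adjusted p = 0.00185). Hnrnpu itself, a nuclear matrix protein that binds RNA and chromatin, had 11.76 and 12.23 in adults, against 15.13, 14.52 and 14.71 in pups (-2.79, SE 0.27, adjusted p = 0.000873). Its adjusted p was the lowest among the members in this comparison. Hnrnpk, which binds C-rich RNA through KH domains, had 12.25 and 12.70 in adults, against 15.11, 15.22 and 15.16 in pups (-2.69, SE 0.60, adjusted p = 0.0183). Hnrnpab, known for mRNA transport in neurons, had 12.36 and 12.63 in adults, against 14.77, 14.53 and 14.74 in pups (-2.19, SE 0.29, adjusted p = 0.00262). The adult levels of these 4 genes lay below every pup sample.

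The other 4 genes that fell in adult hippocampus were Hnrnpul1 (-2.10), Hnrnph1 (-1.88), Hnrnpd (-1.66), known for mRNA decay, and Hnrnpa2b1 (-1.51), known for mRNA trafficking. The 7 other hnRNP genes had differences between -1.16 (Hnrnph3) and 0.63 (Hnrnpr), and the 10 Srsf genes between -0.63 (Srsf3) and 0.68 (Srsf10). Adult and pup samples did not overlap for 19 of the 29 members (65.5%), against 55.1% of all genes. Without adult hippocampus replicate 1 the count fell to 7, and the genes lost were Hnrnpa2b1, Hnrnpd, Hnrnpdl, Hnrnpk and Hnrnpm. The remaining adult sample is then assumed to vary like the other groups.

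**Figure D1:**
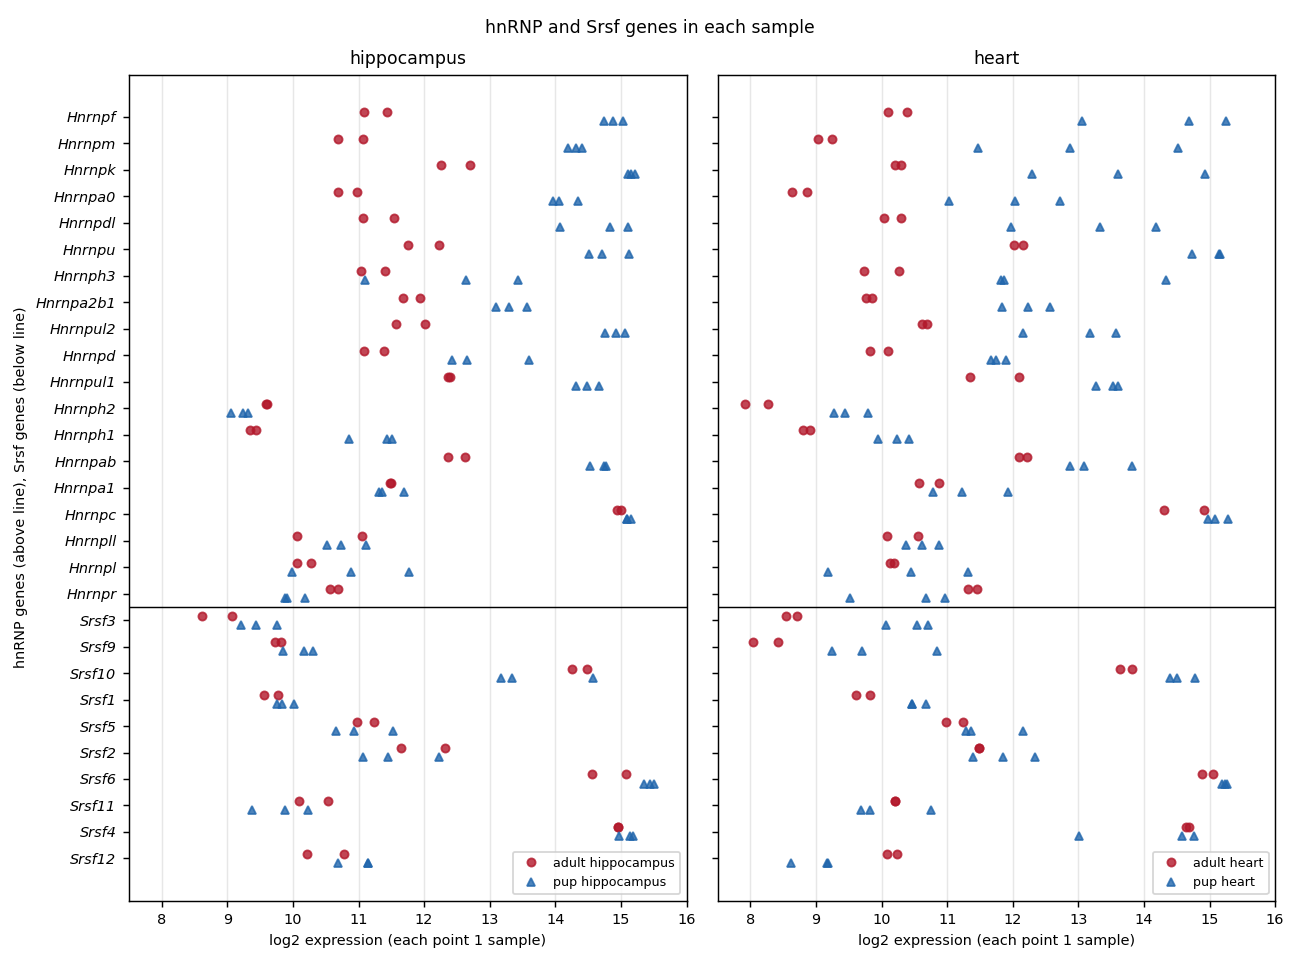
Log2 expression of each member (brightest probe set) in each sample, hippocampus left and heart right, with adult samples as circles and pup samples as triangles. Hnrnpf, Hnrnpm, Hnrnpk, Hnrnpa0, Hnrnpdl and Hnrnpu show adult samples well below the pup samples in both tissues, while most Srsf genes show overlapping or close groups.

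In heart, 17 members were lower and 1 was higher in adults than in pups, where 9.38% of all genes were lower and 11.2% higher. Among the genes at or above the dimmest member 12% were lower. The lower members were 14 of 19 hnRNP genes, with a median of -1.82 over the 19, and Srsf1, Srsf3 and Srsf9, while Srsf12 was higher. The median over the 10 Srsf genes was -0.43 and that over all genes 0.09. Adult and pup samples did not overlap for 23 of the 29 members (79.3%), against 48.7% of all genes.

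Hnrnpf had 10.10 and 10.38 in adult heart, against 14.69, 13.06 and 15.25 in pup heart (-4.09, SE 0.53, adjusted p = 0.00179). Hnrnpm had 9.25 and 9.03 in adults, against 12.87, 11.47 and 14.52 in pups (-3.81, SE 0.69, adjusted p = 0.00599). Pup heart replicate 2 was the lowest pup sample and replicate 3 the highest for both genes. Hnrnpk had 10.20 and 10.29 in adults, against 13.60, 12.30 and 14.93 in pups (-3.37, SE 0.60, adjusted p = 0.00578). Hnrnpa0 had 8.64 and 8.86 in adults, against 12.03, 11.03 and 12.72 in pups (-3.18, SE 0.42, adjusted p = 0.00195). The same order of the pup samples held for these genes, and adult samples stayed below all of them.

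Hnrnpdl had 10.04 and 10.30 in adult heart, against 13.33, 11.98 and 14.19 in pup heart (-3.0, SE 0.57, adjusted p = 0.00777). Hnrnpu had 12.16 and 12.02 in adults, against 15.16, 14.73 and 15.14 in pups (-2.92, SE 0.27, adjusted p = 0.000585). Unlike Hnrnpdl, Hnrnpu was nearly level across the pup hearts. Hnrnph3, a relative of Hnrnph1, had 9.73 and 10.26 in adults, against 11.86, 11.82 and 14.34 in pups (-2.67, SE 0.83, adjusted p = 0.05 after rounding, just under the threshold). Hnrnpa2b1 had 9.86 and 9.76 in adults, against 12.56, 11.83 and 12.23 in pups (-2.39, SE 0.27, adjusted p = 0.00104). The groups did not overlap for either gene, and for Hnrnph3 pup heart replicate 3 lay far above the other two.

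The other hnRNP genes that fell in adult heart were Hnrnpul2 (-2.32), Hnrnpd (-1.82), Hnrnpul1 (-1.75), Hnrnph2 (-1.41), Hnrnph1 (-1.35) and Hnrnpab (-1.10). Of the SR genes that fell, Srsf3, which links splicing to mRNA export, differed by -1.81, Srsf9 by -1.70 and Srsf1, the founding SR protein, by -0.82. Srsf12, a relative of the splicing repressor Srsf10, had 10.24 and 10.08 in adult heart, against 8.62, 9.18 and 9.17 in pup heart. It was the only member that rose with age in either tissue at its brightest probe set, with a difference of 1.17 (SE 0.29, adjusted p = 0.0204) and no overlap. Its call was lost without either adult heart sample and without pup heart replicate 1.

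The 11 members that did not pass in heart had differences between -0.84 (Srsf10) and 1.00 (Hnrnpr). Without adult heart replicate 1 the count of called members fell to 9, and Hnrnpab, Hnrnpd, Hnrnpdl, Hnrnph1, Hnrnph3, Hnrnpk, Srsf1, Srsf9 and Srsf12 were lost. The methods' t-test on the same samples takes its spread from the compared groups only, without the other groups or genes. It called 0 members in heart after adjustment, although 17 had an unadjusted p under 0.05 by that test and 19 by limma.

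**Figure D2:**
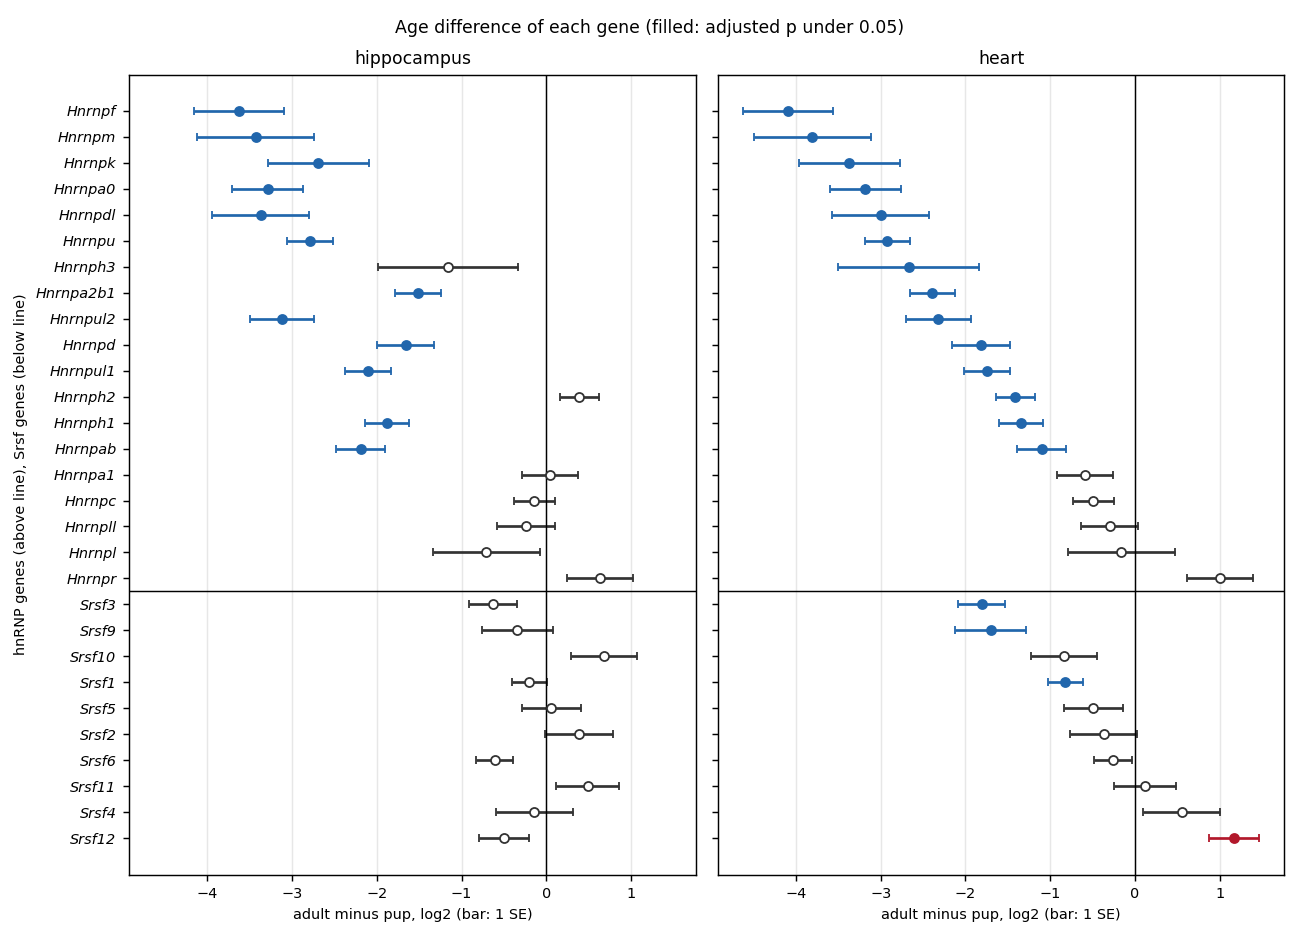
Adult minus pup difference (log2, with 1 SE) of each member in hippocampus (left) and heart (right), filled where the adjusted p was under 0.05. Of the filled points 12 lie below 0 in hippocampus and 17 in heart, and the single one above 0 is Srsf12 in heart at 1.17.

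The 12 hnRNP genes that fell in adult hippocampus all fell in adult heart too, which is 100% of the hippocampal list and 70.6% of the heart list of 17. Over all genes, 649 were lower in adults of both tissues, 47.9% of those lower in hippocampus and 38% of those lower in heart. The 5 members lower in heart and not called in hippocampus were Hnrnph2, Hnrnph3, Srsf1, Srsf3 and Srsf9. The age difference itself was tested between tissues, and 1 member passed, lower in heart, where 1.23% of all genes passed with a lower and 2.45% with a higher age difference in heart.

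That gene was Hnrnph2, on the X chromosome, which binds G runs as Hnrnph1 and Hnrnpf do. It had 9.60 and 9.59 in adult hippocampus, against 9.24, 9.06 and 9.31 in pup hippocampus. In heart it had 8.26 and 7.92 in adults, against 9.44, 9.27 and 9.79 in pups. The hippocampal age difference was 0.39 and that in heart -1.41, a difference of differences of -1.80 (SE 0.33, adjusted p = 0.0222). The call was lost when any adult sample, pup hippocampus replicate 1 or pup hippocampus replicate 2 was left out. Hnrnph2 has a single probe set, so no second measurement stands beside it. Srsf12 had an age difference of -0.50 in hippocampus and 1.17 in heart, and its difference of 1.67 did not pass (adjusted p = 0.0575).

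The level of the hnRNP genes as a group shows the same contrast. The mean over the 19 genes was 11.31 and 11.47 in adult hippocampus, against 13.17, 12.93 and 13.27 in pup hippocampus, and 10.42 and 10.53 in adult heart, against 12.36, 11.88 and 12.84 in pup heart. The mean over the 10 Srsf genes was 11.57 and 11.69 in adult hippocampus, against 11.89, 11.75 and 11.50 in pup hippocampus, and 11.31 and 11.27 in adult heart, against 11.64, 11.63 and 11.93 in pup heart. The mean over all genes stayed between 10.19 and 10.33 in every sample. The hnRNP mean separated the ages in each tissue, while the Srsf mean overlapped between ages in hippocampus and did not in heart.

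Several technical and tissue measures moved with age beside these counts. The hybridization controls differed by -2.35 in hippocampus and -2.43 in heart, the same sign as the hnRNP genes, while the 27 poly-A controls differed by 0.27 and 0.50. In pup hearts the Gapdh 3′ to 5′ gap (2.49, 0.72 and 3.80) had the same order as the hnRNP mean (12.36, 11.88 and 12.84). So had the beta-actin gap (0.58, 0.39 and 0.82), which unlike the Gapdh gap did not overlap between ages in heart. The Srsf mean of the pup hearts (11.64, 11.63 and 11.93) had this order too. In pup hippocampus the beta-actin gap (2.34, 1.84 and 2.48) had the order of the hnRNP mean (13.17, 12.93 and 13.27). The Gapdh gap there (2.90, 3.03 and 4.97) did not. In adult hippocampus the Gapdh gap ran opposite to the hnRNP mean, and in adult heart the beta-actin gap did. The cardiomyocyte markers differed by a median of -1.32 in heart, with 3 of 6 lower in adults (Nppa, Ryr2 and Tnni3), 6 of 6 negative and no overlap between ages for any of the 6. The fibroblast markers averaged 11.31 and 11.33 in adult heart against 14.15 to 15.11 in pup heart, with 2 of 4 genes lower. The endothelial markers averaged 10.89 and 10.93 against 13.01 to 13.39 (2 of 3 lower) and the proliferation markers 7.80 and 7.72 against 9.09 to 10.58 (2 of 4 lower). In adult hippocampus against pup hippocampus the fibroblast markers averaged 10.82 and 10.37 against 11.38 to 11.92 (2 of 4 lower). The endothelial markers averaged 10.66 and 10.55 against 10.86 to 11.25 (1 of 3 lower) and the proliferation markers 7.23 and 7.13 against 8.34 to 8.52 (1 of 4 lower). In these lists 1 fibroblast marker (0.95) and 1 endothelial marker (1.76) went the other way without passing. The 3 oligodendrocyte markers (0.52 to 1.41) and the 2 erythroid markers (0.99 to 1.09) were all positive in hippocampus, none passing. Of the 6 neuronal markers 1 was lower and 1 higher in adult hippocampus, and 0 of 4 astrocyte markers passed. The part of these technical and tissue measures in the age differences of the hnRNP genes was not tested. In bulk tissue, fewer cells of a type and less RNA per cell cannot be told apart.

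Between tissues, 6 members were higher in adult hippocampus than in adult heart and 0 were lower, where 9.46% of all genes were higher and 10.2% lower. The tissue comparisons use the same samples as the age comparisons. Hnrnpk had 12.25 and 12.70 in hippocampus, against 10.20 and 10.29 in heart (2.23, SE 0.66, adjusted p = 0.0425). Hnrnpa0 had 10.69 and 10.98 in hippocampus, against 8.64 and 8.86 in heart (2.09, SE 0.46, adjusted p = 0.0138). Both genes were the farthest apart between adult tissues among those called. Hnrnpa2b1 had 11.67 and 11.94 in hippocampus, against 9.86 and 9.76 in heart (1.99, SE 0.30, adjusted p = 0.0023). Srsf9 had 9.82 and 9.72 in hippocampus, against 8.42 and 8.04 in heart (1.54, SE 0.46, adjusted p = 0.0448). Hnrnph2 (1.51) and Hnrnpd (1.28) were the other two. With any of the 4 adult samples left out, only Hnrnpa2b1 and Hnrnph2 stayed past the threshold, and 3 were called without pup hippocampus replicate 1. The calls of Hnrnpk and Srsf9 were lost in 8 of the 10 single leave-outs. Other probe sets of Hnrnpk and Hnrnpa2b1 were mixed between adult tissues. For Hnrnpk, 1448176_a_at was also higher in hippocampus (1.14), while 1454692_x_at (-0.30) and 1423684_at (0.70) did not pass. For Hnrnpa2b1, 1434047_x_at was also higher (1.75), while 1420365_a_at (0.94) and 1433830_at (0.93) did not pass.

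In pups, 8 members were higher in hippocampus than in heart and 2 were lower, where 8.27% of all genes were higher and 7.43% lower. Hnrnpa0 had 14.35, 14.06 and 13.97 in hippocampus, against 12.03, 11.03 and 12.72 in heart (2.20, SE 0.38, adjusted p = 0.0041). Srsf12 had 11.15, 11.14 and 10.68 in hippocampus, against 8.62, 9.18 and 9.17 in heart (2.00, SE 0.26, adjusted p = 0.000741). Srsf12 was thus about 4.01-fold higher in pup hippocampus, whereas the adult tissues differed by 0.33 without passing the test. Hnrnpul2 had 14.92, 14.75 and 15.06 in hippocampus, against 13.18, 12.16 and 13.58 in heart (1.94, SE 0.34, adjusted p = 0.00472). Hnrnpab had 14.77, 14.53 and 14.74 in hippocampus, against 13.81, 13.09 and 12.87 in heart (1.42, SE 0.26, adjusted p = 0.00576). None of these 4 genes, named for their large differences, overlapped between the pup tissues. The same held for 13 of the 29 members (44.8%), against 31.7% of all genes.

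Hnrnpd, Hnrnpa2b1, Hnrnph1 and Hnrnpul1 were higher in pup hippocampus by 1.02 to 1.12. At other probe sets of Hnrnpa2b1, 1434047_x_at was also higher (1.12), while 1420365_a_at (0.09) and 1433830_at (0.40) did not pass. The 2 genes lower in pup hippocampus were SR genes. Srsf3 had 9.75, 9.43 and 9.21 in hippocampus, against 10.54, 10.06 and 10.70 in heart (-0.97, SE 0.25, adjusted p = 0.0299). Srsf1 had 10.01, 9.75 and 9.83 in hippocampus, against 10.47, 10.47 and 10.67 in heart (-0.68, SE 0.19, adjusted p = 0.0396). The Srsf1 call was lost whichever of the 10 samples was left out, and it held in 2 of 25 alternatives. Hnrnpa0, Hnrnpa2b1 and Hnrnpd were called higher in hippocampus at both ages, in comparisons that share no samples but share 1 fit. Of these, the Hnrnpd call was lost in 9 of the 10 single leave-outs in pups and in 6 in adults, the Hnrnpa0 call in 0 and 4, and the Hnrnpa2b1 call in 1 and 0. The pup count was 5 without pup hippocampus replicate 3, which lost Hnrnpd, Hnrnph1, Hnrnpul1, Srsf1 and Srsf3.

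**Figure D3:**
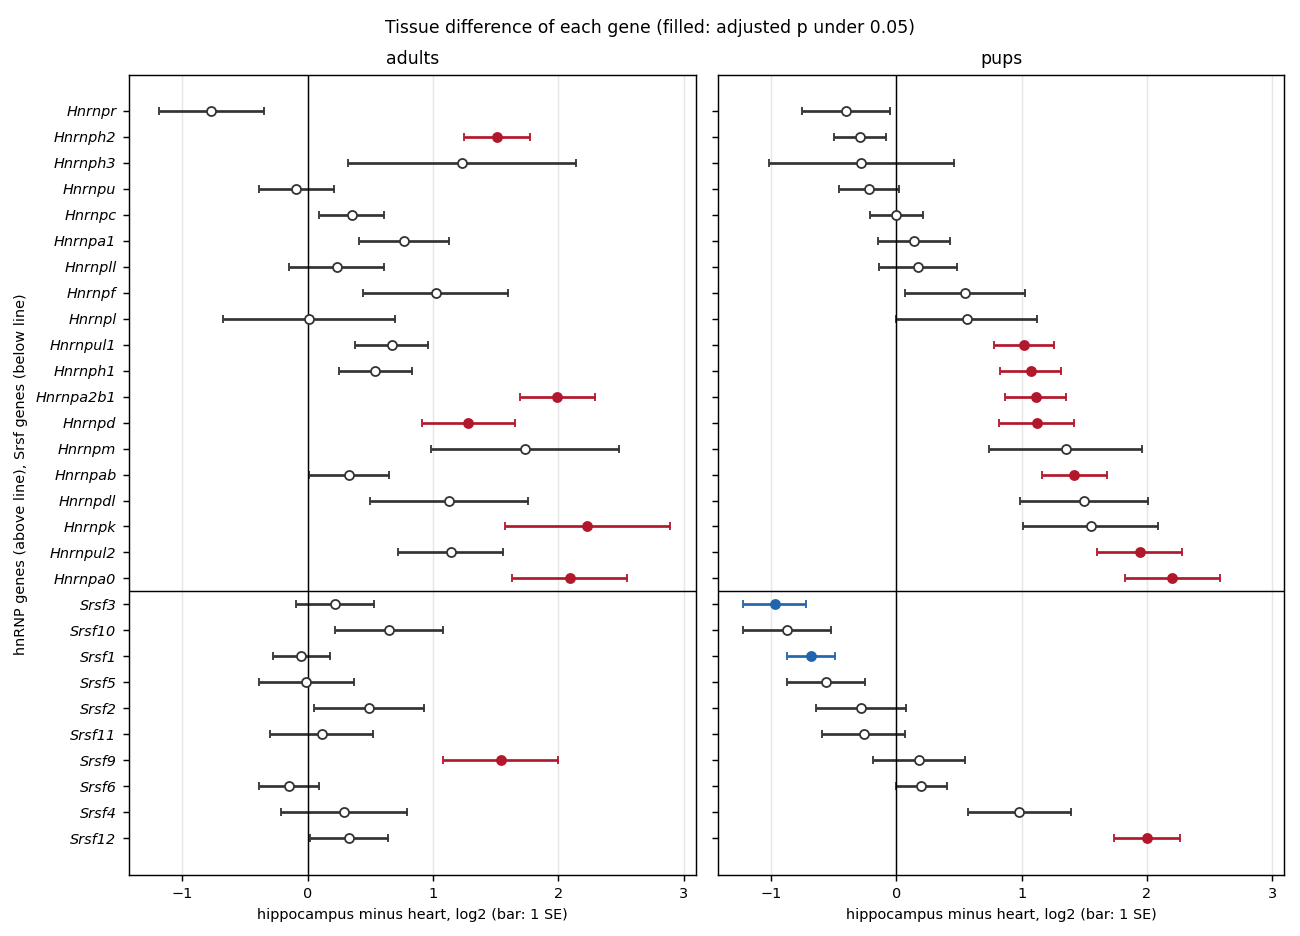
Hippocampus minus heart difference (log2, with 1 SE) of each member in adults (left) and pups (right), filled where the adjusted p was under 0.05. In adults 6 filled points lie above 0, and in pups 8 lie above and Srsf1 and Srsf3 below.

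Of the members, 20 have several probe sets, and these often disagreed. Over all 91 single-gene probe sets of the family, tested among all 34958, 24 were lower and 4 higher in adult hippocampus. Of all probe sets 7.28% were lower and 8.15% higher there. In adult heart 38 were lower and 4 higher, against 9.47% lower and 11.4% higher of all probe sets. Of the 12 members called in hippocampus, 9 had several probe sets, and for 7 of these at least 1 other probe set was lower too. In heart 11 of the 18 had several, and 8 had another called in the same direction. Of the 15 members whose brightest probe set has the plain suffix, 6 were lower in hippocampus and 9 in heart, and of the 14 with a suffix that allows matches to several transcripts, 6 and 8. Probe sets can lie on different exons or 3′ ends, and where they lie was not analysed here.

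Hnrnpf is the clearest case. The probe sets 1437099_x_at and 1456664_x_at gave nearly the same values, with differences of -3.59 in hippocampus and -4.05 in heart for the second. The probe set 1450963_at had 11.64 and 9.94 in adult hippocampus against 10.61, 11.72 and 11.45 in pups (-0.47, adjusted p = 0.682), and 11.01 and 10.94 in adult heart against 10.88, 10.17 and 12.46 in pups (-0.19, adjusted p = 0.87). The probe set 1423382_a_at differed by -0.36 and 0.01. The brightest probe set of Hnrnpf thus fell 12.4-fold in adult hippocampus and 17-fold in adult heart, while these 2 probe sets passed the test in neither tissue. The suffix x_at marks probe sets that can also match other transcripts.

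For Hnrnpu, 1423050_s_at was also lower in both tissues (-1.54 and -2.19) and 1423051_at in heart (-2.17), whereas 1450849_at had 1.86 in hippocampus and 0.42 in heart without passing. For Hnrnpdl, 1449039_a_at was lower in both (-2.72 and -2.80), while the other 5 lay between -0.34 and 0.26 in hippocampus. In heart 1456698_s_at of this gene was also lower (-1.97), and the remaining 4 lay between -0.72 and 0.61 without passing. For Hnrnpk, 1448176_a_at was lower in both (-1.95 and -2.38) and 1454692_x_at in hippocampus (-1.56), while 1423684_at differed by -0.48 and -0.97 without passing. For Hnrnpd, 1457568_at and 1458273_at differed by -0.21 and -0.24 in hippocampus without passing. In heart 1457568_at was lower (-1.07) and 1458273_at did not pass (-0.22). For Hnrnpul2 the dimmer probe set differed by -0.49 and -0.22 without passing. For Hnrnpab, 1455855_x_at was also lower in both tissues (-2.41 and -2.32). Its second brightest probe set, 1426114_at (mean 12.81, against 13.03), went the other way without passing, by 1.85 in hippocampus (adjusted p = 0.0561) and 0.74 in heart. The remaining Hnrnpab probe sets passed in neither tissue.

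Some members with no call at the brightest probe set had one elsewhere. For Hnrnpc, which binds U tracts, 1460240_a_at differed by -0.14 in hippocampus, while 1418693_at was higher in adults by 1.61 (adjusted p = 0.00659). For Hnrnpll, 1427144_at was lower in both tissues (-1.88 and -1.29). For Hnrnpa1, a splicing silencer, 1436549_a_at was lower in adult heart (-1.99), and at its brightest probe set both arrays of one adult hippocampal sample lay 3.31 apart. For Hnrnpr, known for axonal mRNA in motor neurons, 1437526_x_at was lower in adult heart (-1.98) and 1429232_at higher (1.43). Srsf11 (1.26 at 1430077_at, -1.89 at 1427269_at) and Srsf3 (-1.81 at its brightest, 0.96 at 1438215_at) were also called both ways in heart. For Srsf10, the brightest probe set differed by 0.68 in hippocampus and -0.84 in heart without passing, while 1423982_at was lower in both (-1.69, adjusted p = 0.0469, and -2.57). For Srsf2, 1415807_s_at and 1427816_at were higher in adult hippocampus (0.96 and 0.89) and 1452439_s_at was lower in adult heart (-1.79). For Srsf1, 1434972_x_at (-2.61) and 1428099_a_at (-2.10) were also lower in adult heart, and its other 4 did not pass there. Among those, 1457136_at had 0.24 between ages in heart and 0.36 between pup tissues. For Srsf3, 1416151_at had 0.65 between pup tissues, and for Hnrnpab, 1426114_at had -1.08 between pup tissues. The last 4 values did not pass the test.

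**Figure D4:**
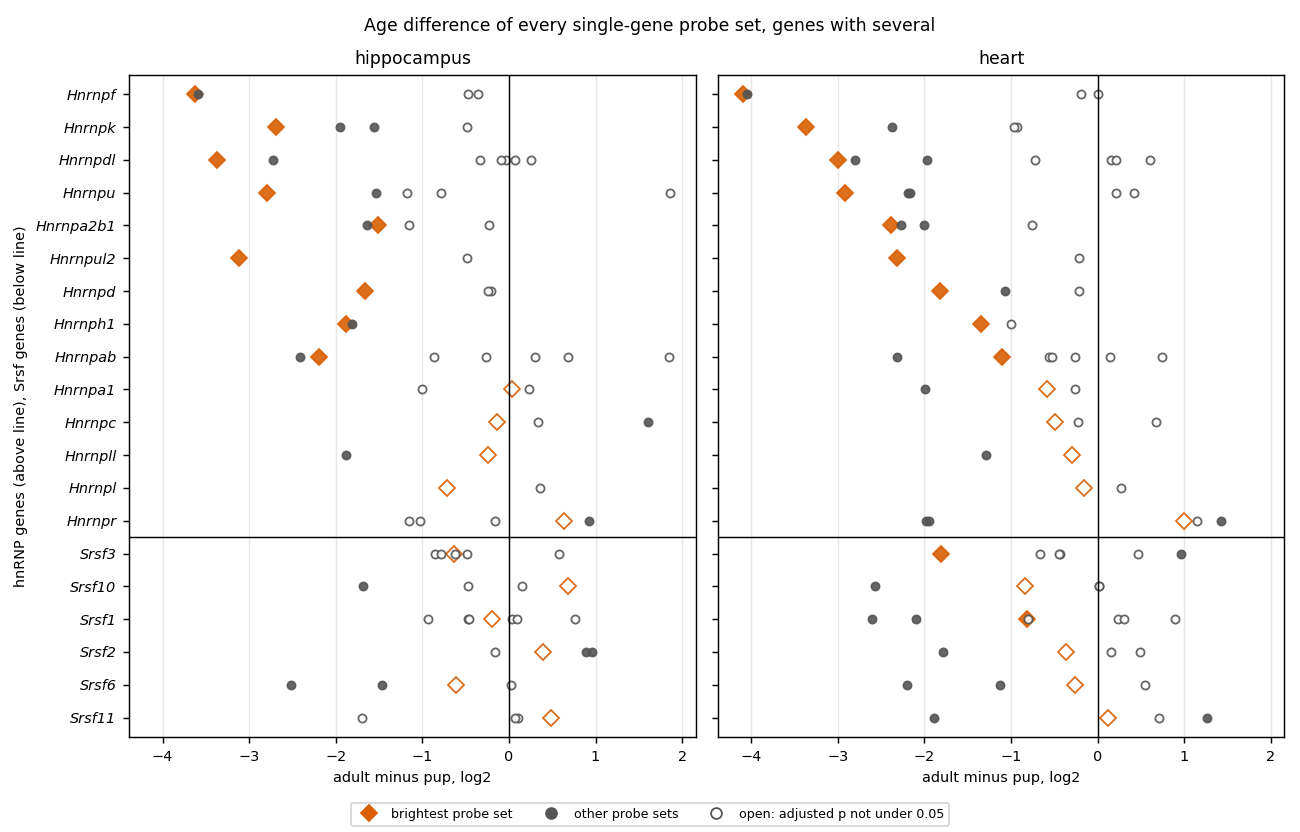
Adult minus pup difference (log2) of every single-gene probe set of the 20 members with several, in hippocampus (left) and heart (right). Diamonds are the brightest probe set of a gene, circles the others, and open symbols did not pass the test. Within Hnrnpf the probe sets run between -4.09 and 0.01 in heart, and within Srsf6 between -2.52 and 0.02 in hippocampus.

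Srsf6, the SR protein SRp55, was near the top of the scale at 1447898_s_at, with 14.56 and 15.08 in adult hippocampus against 15.51, 15.35 and 15.44 in pups (-0.61, adjusted p = 0.106). Its second probe set, 1416720_at, had 11.64 and 11.91 in adult hippocampus against 11.70, 11.98 and 11.59 in pups, and 12.85 and 12.88 in adult heart against 15.36, 14.54 and 15.30 in pup heart. Here pup heart stood farthest apart. Heart fell in adults by 2.20 (adjusted p = 0.00143), hippocampus differed by 0.02, and the age difference itself differed between tissues by -2.21 (adjusted p = 0.0206). Adult hippocampus was also lower than adult heart at this probe set (-1.09, adjusted p = 0.0357). Pup hippocampus was lower than pup heart at this probe set by 3.31 on the log2 scale (difference -3.31, adjusted p = 2.34e-05).

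The next Srsf6 probe set, 1448454_at, had 9.49 and 9.92 in adult hippocampus against 12.40, 12.13 and 12.15 in pups, and 13.08 and 12.98 in adult heart against 12.00, 11.50 and 13.96 in pups. It fell in adult hippocampus (-2.52, adjusted p = 0.0197) and differed by 0.55 in heart, with a difference of age differences of 3.07 that did not pass (adjusted p = 0.0703). Adult hippocampus was the group that stood apart at this probe set. The remaining one, 1416721_s_at, was lower in adults of both tissues (-1.47 and -1.13).

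**Figure D5:**
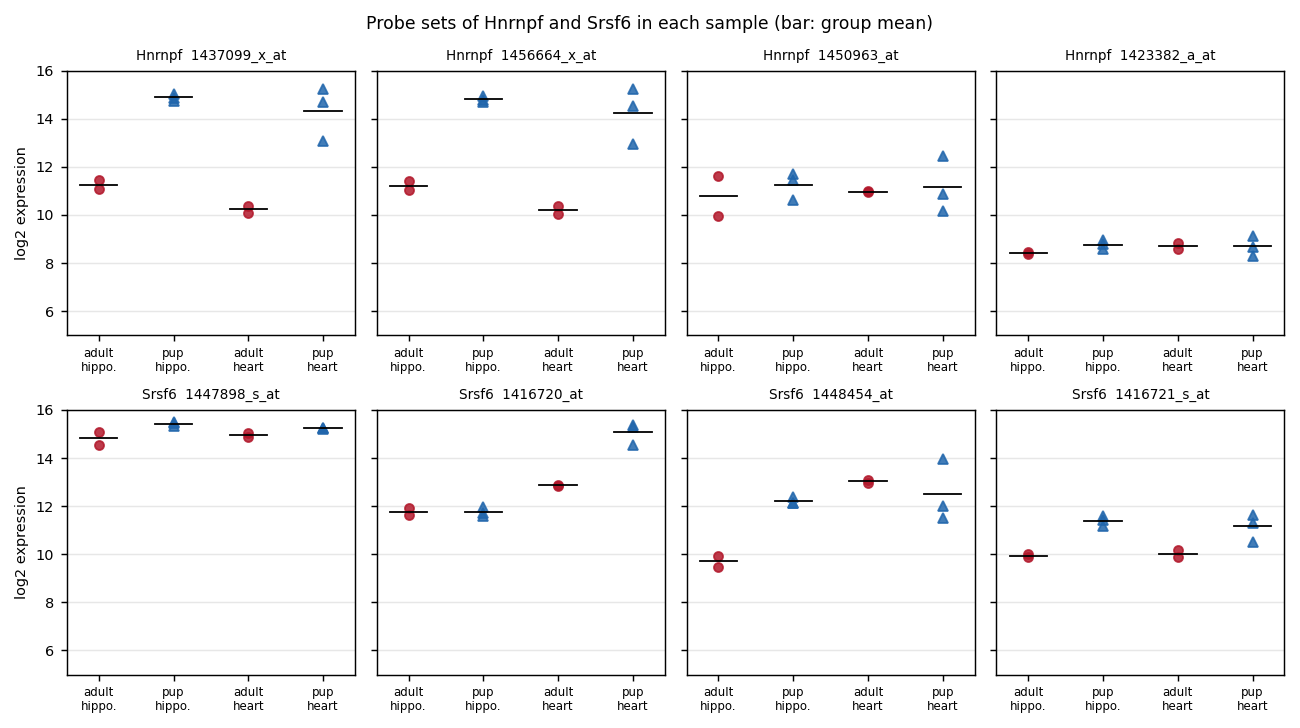
Log2 expression at the 4 probe sets of Hnrnpf (top) and of Srsf6 (bottom) in each sample, with bars at the group means, adult samples as circles and pup samples as triangles. The first 2 Hnrnpf probe sets lie far apart between ages and the other 2 passed the test in neither tissue. Pup heart stands farthest apart at the second Srsf6 probe set and adult hippocampus at the third.

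Other RNA-binding and splicing genes are given by lists, each to be read against the 7.44% of all genes lower and 8.63% higher in adult hippocampus, and the 9.38% lower and 11.2% higher in adult heart. Of 21 measured hnRNP proteins known under other names, 8 were lower (38.1%) and 0 higher in adult hippocampus, and 6 lower (28.6%) and 2 higher in adult heart, with medians of -0.40 and 0.01. Matr3, a nuclear matrix RNA-binding protein, fell by 2.34 in hippocampus and by 2.91 in heart. Cirbp, the cold-inducible RNA-binding protein, differed by -2.24 and -2.12, and Ewsr1 by -1.96 and -2.61. Pspc1, a paraspeckle protein, differed by -1.92 in hippocampus, and Tardbp, the gene of TDP-43, was higher in adult heart by 2.10. The hippocampal count of this list, like that of the Hnrnp genes, held lower genes only.

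Of 24 SR-related proteins and Tra2 genes, 1 was lower in adult hippocampus (Acin1, -1.45), which is 4.17% and below the share of all genes, while 5 were lower (20.8%) and 1 higher (4.17%) in adult heart. The lower ones in heart included Tra2b (-2.96), an enhancer-binding splicing activator, Luc7l3 (-2.42), Luc7l2 (-1.68) and Pnn (-1.62). Of 15 genes of SR protein phosphorylation and import, 2 were lower and 3 higher in hippocampus, and 5 lower (33.3%) and 1 higher in heart. Ppp1cb (-2.60 and -2.70) and Ppp1cc (-1.92 and -2.25), catalytic subunits of protein phosphatase 1, were lower in adults of both tissues, and Tnpo2, an import receptor, was higher in both (1.98 and 1.76). Clk1, a kinase of SR proteins, was lower in adult heart (-2.65), and Tnpo3, the import receptor of SR proteins, was higher in adult hippocampus (1.25). In these 3 lists the age difference differed between heart and hippocampus for Ptbp2 (2.31, adjusted p = 0.00794), a neuronal relative of Ptbp1. Clk1 (-1.75, adjusted p = 0.0434) was the only other. These were 1 of 21, 0 of 24 and 1 of 15 genes by list. Of all genes, 1.23% passed with a lower and 2.45% with a higher age difference in heart.

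In the core machinery genes were called in both directions. Of 19 core snRNP proteins, 4 were lower (21.1%) and 3 higher in adult hippocampus, and 5 lower (26.3%) and 3 higher in adult heart, among them Snrnp40 (-1.66 and -3.59), Snrpe (-1.87 and -2.39), Lsm3 (-2.56 and -1.90) and Lsm6 (1.75 and 1.58). Of 16 U2 and 3′ splice site factors, 4 and 1 in hippocampus and 2 and 1 in heart were lower and higher, with Ddx39b at -2.27 and -1.80 and Sf3a3 at 1.60 and 1.22. Of 28 later spliceosome factors, 2 were lower and 2 higher in hippocampus (7.14% each, about the share of all genes), and 4 lower (14.3%) and 1 higher in heart, with Prpf19 at -2.38 and -2.44. Of 16 exon junction and export genes, 3 were lower and 1 higher in hippocampus, and 8 lower (50%) and 0 higher in heart, where the export adaptor Alyref differed by -2.12 and the export receptor Nxf1 by -1.91.

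Of 29 tissue-specific splicing regulators, 7 were lower (24.1%) and 3 higher in adult hippocampus, and 3 lower and 3 higher in adult heart (10.3% each, about the share of all genes). The neuronal regulators Celf4 (-2.88) and Elavl3 (-2.44), with Khdrbs3 (-2.0) and Celf2 (-1.99), led in hippocampus. In heart, Celf5 was higher (2.05), and Qk (-1.93), Khdrbs3 (-1.81) and Khdrbs1 (-1.76) were lower. The age difference was higher in heart than in hippocampus for 4 of the 29, by 3.21 for Celf5, 2.45 for Celf4, 2.36 for Elavl3 and 1.59 for Nova2, where 2.45% of all genes passed in that direction.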

How the data were processed

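The authors deposited log2 expression values of 45101 probe sets, which per the study's methods and the submitters' processing notes were summarized with RMA 2.0; the background correction is not given in the sources used here, and detection calls were not used. The platform annotation named 1 gene for 34958 probe sets, several for 932 and none for 9211. The 29 member symbols were checked through Entrez IDs and 0 changed. 7 probe sets that name Hnrnpa1 or Hnrnpa3 together with other genes were left out, since near-identical copies could share their signal.

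The technical arrays of an adult sample were averaged first (the largest gap between the technical arrays of a member had a median of 0.61 over the members and was over 1 for 7 of them), which left 10 samples. Differences were fitted with limma 3.58.1 (R 4.3.3, statmod 1.5.0), with lmFit and eBayes, 4 group means, 6 residual and 3.1 prior degrees of freedom, two-sided. The scripts were tested on simulated data. Errors are SE from limma. Groups have 2 adult or 3 pup samples.

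Members, lists and alternatives were chosen with earlier results of these data known. In full are given, of the called members, at most 8 by size of difference in each direction per age comparison, at most 4 per tissue comparison, and all of the interaction. Of the other lists, at most 4 called genes per age comparison are named. The probe sets and the members set beside them in clauses were picked after their values were seen. Alternatives covered normalization, choice of probe set, a filter on dim genes, the adult replicates, the methods' t-test, array weights, the eBayes prior, a replicate block and leaving out each sample. Promoter windows are RefSeq's (GRCm38.p6).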

Additional observations from a re-analysis of the deposited data

Results flagged for a closer look

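Hnrnph2 differed in its age difference between tissues: the heart age difference less the hippocampal one was -1.80 on the log2 scale (limma adjusted p = 0.0222), with adult samples below pup samples in heart and above them in hippocampus. The Srsf6 probe set 1416720_at gave -2.21 for the same comparison (adjusted p = 0.0206 over all single-gene probe sets), while the brightest Srsf6 probe set gave 0.35 (adjusted p = 0.593).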

How the results depend on the processing

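The counts of called members were 12 (adult minus pup hippocampus), 18 (adult minus pup heart), 6 (hippocampus minus heart in adults), 10 (hippocampus minus heart in pups) and 1 (difference of age differences). Leaving out each sample in turn gave 7 to 13, 9 to 19, 2 to 9, 5 to 11 and 0 to 1. At the 0.05 threshold the methods' t-test called 8, 0, 0 and 2 in the first 4 comparisons (15, 17, 13 and 11 at an unadjusted p under 0.05). At the FDR of 0.1% that the methods name, it called 0 members and 0 of all genes in each of the 4. Limma called 1, 1, 0 and 1 members at that FDR. The t-test was not run for the difference of age differences. With each adult array as a replicate the adult tissue count was 10. The count for the difference of age differences was 2 with each adult array as a replicate, with the sample as a random block, with array weights, with the mean of all probe sets and without probe sets that can match several transcripts. Without both pup samples numbered 2, an alternative chosen after seeing the data, the pup tissue count was 5. The other normalizations gave 12 and 18 for the age comparisons, and the most variable probe set gave 16 and 24.

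Without probe sets that can match several transcripts, 27 members were measured (Hnrnpm and Srsf5 were left without one) and the age counts were 8 and 12, with 7 lower and 1 higher (Hnrnpc) in hippocampus and 11 lower and 1 higher (Srsf12) in heart. The hippocampal age difference of Hnrnpdl turned to 0.07, the heart age difference of Srsf1 to 0.24, and the pup tissue differences of Srsf1 and Srsf3 to 0.36 and 0.65. With the mean of all probe sets the pup tissue difference of Hnrnpab turned to -0.08. By construction these settings use other probe sets of the same gene. The median difference of the members was -0.34 in hippocampus and -0.84 in heart without such probe sets, against -0.63 and -1.35.

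Replicate numbers are shared between groups, but same-numbered pup samples of both tissues did not deviate together (r = 0.203, -0.092 and 0.002 across genes). With the number as a fixed replicate block the counts were 12, 14, 5, 10 and 1, and Hnrnph3, Srsf1, Srsf9 and Srsf12 lost their call in heart. With age and number as a random replicate block they were 12, 18, 6, 10 and 2. No signal was set against a background level, and values close to 16, the highest deposited, limit how large a difference can appear.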
